A study of Arabidopsis thaliana with 9 samples.

Results

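Rosettes of Arabidopsis thaliana that overexpress PP2-A5, the line PP2-A5oe, were compared with rosettes of Col-0 across all genes counted by RNA sequencing. The comparison rests on 6 of the 9 libraries, 3 biological replicates of PP2-A5oe and 3 of Col-0, which is labelled as wild type. The remaining 3 libraries came from pp2-a5, by its lower-case name a mutant of the same gene, and they are used here to tell which differences were particular to PP2-A5oe. Every library carries the label of a control treatment, so no mites were present as far as the labels say, although the study as a whole is about defence against the spider mite Tetranychus urticae. The tissue label says rosette and the plants were 3 weeks old, though the extraction text uses the word seedlings. They name 1 overexpressing line and 1 mutant line, and neither the promoter of the transgene nor the number of insertions, so what PP2-A5 does and what else sets each line apart cannot be told apart. The PP2-A5 transcript itself was not analysed here.

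PP2-A5 belongs to the family of phloem protein 2 lectins and joins a TIR domain, the domain that many plant immune receptors use to start signalling, to a carbohydrate-binding lectin domain. Leaves answer touch, wounding, cold and feeding animals with a fast first wave of transcription, in which calcium signals and MAP kinases switch on zinc finger, ERF, WRKY and CBF transcription factor genes. Many transcripts of that wave are short-lived, and their removal begins with deadenylases that shorten the poly(A) tail. Later layers of the response include salicylic acid and jasmonate signalling, receptor kinases and senescence.

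Of 13975 genes tested, 3496 differed between PP2-A5oe and Col-0, 25.0% of the total, with 2027 higher (14.5%) and 1469 lower (10.5%) in PP2-A5oe. A gene was called at an adjusted p under 0.05 in edgeR's quasi-likelihood test with Benjamini-Hochberg adjustment, which is the source of every adjusted p below. With upper-quartile scaling in place of TMM, 1769 genes were higher and 2069 lower, so which direction held more genes depended on the scaling. Most changes were small. The median log2 fold change was 0.58 among higher genes and -0.40 among lower genes, and changes under 1.5-fold made up 1024 of the rises and 1108 of the falls. Among large changes rises were more numerous: 476 genes (3.41%) rose and 109 (0.78%) fell at least 2-fold, 132 and 13 at least 4-fold, and 46 and 5 at least 8-fold. With upper-quartile scaling 443 rose and 123 fell at least 2-fold. Replicates of the groups did not overlap in 5138 genes, 36.8% of those tested.

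CPM scales each count to the size of its library. Summed over called genes, PP2-A5oe gained 71310 CPM and lost 51670 CPM. With upper-quartile scaling the gain was 61970 CPM and the loss 69770 CPM, so the sign of the balance depended on the scaling. With TMM, 50% of the gain came from 137 genes, and 50% of the loss came from 50 genes. By chromosome the share of higher genes ran from 13.97% to 14.95% and that of lower genes from 10.11% to 11.62%. Calls were made in 14.6% of genes with a mean level between 1 and 10 CPM and in 43.6% of genes over 100 CPM. Among 37 long non-coding RNA genes tested, 10 were lower, and edgeR called 0 higher (0 at an unadjusted p under 0.05 and 0 by DESeq2).

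**Figure D1:**
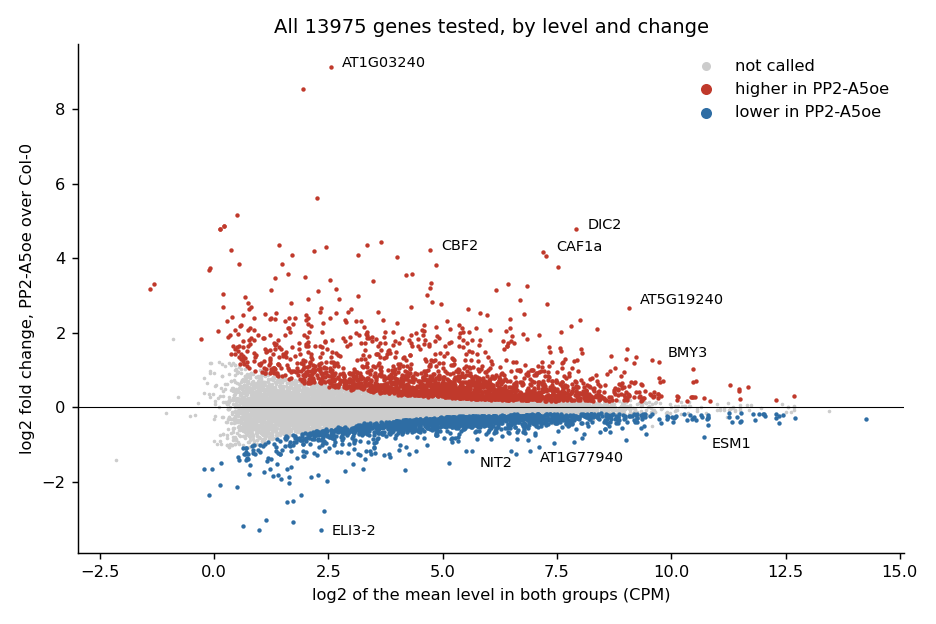
Log2 fold change of PP2-A5oe over Col-0 against the log2 of the mean level of both groups in CPM, 1 point per gene tested, with genes called higher in red and lower in blue. The rises reach further from 0 than the falls. AT1G03240, with 0 counts in Col-0, is plotted at a fitted log2 fold change of 9.13. Among the other labelled genes, DIC2 was 27.9-fold higher and ELI3-2 9.71-fold lower.

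Library totals lay between 5408847 and 6196722 counts. Chloroplast transcripts took 2.49% to 2.78% of the counts. Mitochondrial transcripts took 0.178% in Col-0 replicate 3 and 0.132% in PP2-A5oe replicate 2, against at most 0.0878% in the other libraries. Col-0 replicate 3 also lay away from the other Col-0 libraries on the third principal component. Without that pair of libraries 3098 genes were called. Because the strand setting of the counting is not known, the values of these genes, which overlap another gene, are uncertain: ARR6, AT1G49200, AT4G22470, AT4G34150, AT5G02760, AT5G39520, AT5G51190, BMY3, CASP1, CYCD3;1, EBF2, GASA6, GLR3.3, GSTF2, HEMC, ILA, MKK4, MPK3, OCT1, PP2-A1, RPP1, RVE1, TCH2, WRKY33, WRKY40 and WRKY53. After a level in CPM, ± gives the SD over n = 3 libraries.

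DIC2, STZ and CBF2 were among the strongest rises, and the 250 bases before the start of each are shown because short motifs known from stress and cold promoters lie in them. The sequences are from the RefSeq TAIR10.1 genome, on the strand of the gene, with motif matches on either strand in capitals. In DIC2 (chr4:12686209-12686458, plus strand) the capitals mark CGCGTT, known as the rapid stress response element. In STZ (chr1:9649324-9649573, minus strand) they mark CCGAC, the core of the cold and drought element that CBF proteins bind. In CBF2 (chr4:13016236-13016485, minus strand) they mark, in order, TTGACC on the opposite strand, a form of the W-box of WRKY proteins, then CACGTG, the G-box, then CGCGTT.
DIC2: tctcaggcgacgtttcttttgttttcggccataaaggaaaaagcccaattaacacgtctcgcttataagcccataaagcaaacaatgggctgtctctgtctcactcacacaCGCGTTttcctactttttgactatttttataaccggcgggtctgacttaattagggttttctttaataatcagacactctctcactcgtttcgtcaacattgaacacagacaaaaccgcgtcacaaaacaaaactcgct
STZ: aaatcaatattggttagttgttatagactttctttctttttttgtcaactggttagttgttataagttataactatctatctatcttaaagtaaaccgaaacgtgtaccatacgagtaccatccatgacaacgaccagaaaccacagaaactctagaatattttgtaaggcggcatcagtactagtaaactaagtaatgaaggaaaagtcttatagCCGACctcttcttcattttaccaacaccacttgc
CBF2: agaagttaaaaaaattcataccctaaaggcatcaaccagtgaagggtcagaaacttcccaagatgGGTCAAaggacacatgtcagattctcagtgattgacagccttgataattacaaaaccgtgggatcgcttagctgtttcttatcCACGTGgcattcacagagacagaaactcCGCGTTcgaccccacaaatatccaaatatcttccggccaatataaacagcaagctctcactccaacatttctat

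CGCGTT was found, on either strand, before 35 of the 476 genes that rose at least 2-fold, a share of 7.353% (exact binomial 95% interval 5.17% to 10.1%), and before 2.698% of all 13863 genes tested with an annotated start. Among genes that fell at least 2-fold the share was 4.673% (5 of 107). TTGACC was found before 17.65% of the genes that rose, with an interval from 14.3% to 21.4%, and before 11.99% of all. The shares were 11.97% of the genes that rose and 12.75% of all for CCGAC, and 8.403% and 7.055% for CACGTG. AAAATATCT, the evening element of clock genes, was found before 3.571% of the genes that rose, with an interval from 2.09% to 5.66%, and before 2.409% of all. A promoter can hold several of these motifs, and the window of CAF1a holds none of the 5. These are matches of letters and not measured binding.

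Touch, wounding and cold marker genes rose in PP2-A5oe, and most were also higher than in pp2-a5. The list of touch, wounding and cold markers, drawn up with earlier results of these data known and so no independent support, had 16 tested members of 19, of which 15 rose; their median log2 fold change was 2.98, against -0.02 over all genes. Of these 16, 14 were also higher than in pp2-a5, where 7.21% of all genes were higher and 5.45% lower. The rise was partly shared, as 9 of the 16 were above Col-0 in pp2-a5 too (median 0.74), beside 12.3% of all genes. PP2-A5oe was called higher than both other groups in 746 genes (5.34%) and lower than both in 223 (1.60%). These counts rest on 2 comparisons that share the PP2-A5oe libraries.

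DIC2, a mitochondrial dicarboxylate carrier, stood at 14.7, 15.9 and 20.17 CPM in the Col-0 replicates, at 471.3, 475.0 and 460.6 CPM in PP2-A5oe and at 35.7, 34.2 and 28.5 CPM in pp2-a5. All PP2-A5oe libraries were far above every other library, and pp2-a5 lay above Col-0 without overlap. The rise over Col-0 was 27.9-fold and the difference to pp2-a5 14.3-fold (log2 3.84, adjusted p = 5.71e-27). STZ, also known as ZAT10, a zinc finger repressor of stress genes, stood at 24.8, 23.6 and 27.1 CPM in Col-0, at 346.6, 347.5 and 333.0 CPM in PP2-A5oe and at 42.5, 36.0 and 37.1 CPM in pp2-a5. Its order of groups was the same, with pp2-a5 1.53-fold above Col-0 and PP2-A5oe 8.88-fold above pp2-a5.

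CAF1a, a deadenylase, stood at 15.96, 14.9 and 21.3 CPM in Col-0, at 292.9, 303.2 and 266.9 CPM in PP2-A5oe and at 20.11, 21.2 and 18.45 CPM in pp2-a5. The replicates of Col-0 and pp2-a5 overlapped (log2 fold change 0.20, adjusted p = 0.249), while PP2-A5oe was 14.4-fold above pp2-a5. CBF2, an activator of cold-regulated genes, stood at 1.77, 3.35 and 2.99 CPM in Col-0, at 52.4, 49.2 and 48.6 CPM in PP2-A5oe and at 5.19, 3.64 and 3.44 CPM in pp2-a5, which was not called against Col-0 (adjusted p = 0.11). Its neighbour CBF1 had 3 counts over the Col-0 libraries and 162 over those of PP2-A5oe, a ratio of 54.5 with an exact counting interval from 18.3 to 267. The members of the CBF cluster are similar in sequence, so reads may be divided between them.

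AT4G29780, annotated as a nuclease, stood at 15.5, 17.41 and 13.3 CPM in Col-0, at 289.0, 277.2 and 261.1 CPM in PP2-A5oe and at 26.9, 20.01 and 22.98 CPM in pp2-a5. All 3 groups lay apart, and PP2-A5oe was 11.8-fold above pp2-a5. RTFL12, a gene for a small peptide of the ROTUNDIFOLIA family, was at 24.0 ± 3.58 CPM in PP2-A5oe, 21.7-fold above Col-0 and 10.8-fold above pp2-a5. The uncharacterised AT3G10930 was 19.6-fold above Col-0 and 10.6-fold above pp2-a5.

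Some genes were near silence outside PP2-A5oe. AT1G03240, which encodes an uncharacterised protein (chromosome 1, 792222 to 793060, minus strand), was at 9.94, 9.91 and 15.4 CPM in PP2-A5oe. It had 0 counts in all Col-0 libraries and 1 count in pp2-a5, so it was at least 68.6-fold higher than in Col-0 against a floor of 3 counts over the group. The ratio to pp2-a5 was 219, with a counting interval from 38.8 to 8680. AT5G21960, of the ERF superfamily by its annotation, was at 7.75 ± 0.975 CPM in PP2-A5oe and had 0 counts in Col-0, at least 45.4-fold higher. ILA, a HEAT repeat protein needed for immunity in Arabidopsis, stood at 0.806, 1.17 and 0.934 CPM in Col-0, at 16.6, 15.9 and 17.63 CPM in PP2-A5oe and at 0.487, 0.496 and 0.625 CPM in pp2-a5. ILA was thus 16.9-fold above Col-0 and 29.9-fold above pp2-a5. It spans 24064822 to 24083428 on chromosome 1, has 3 annotated transcripts and overlaps AT1G64795, so its counts may include another gene.

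**Figure D2:**
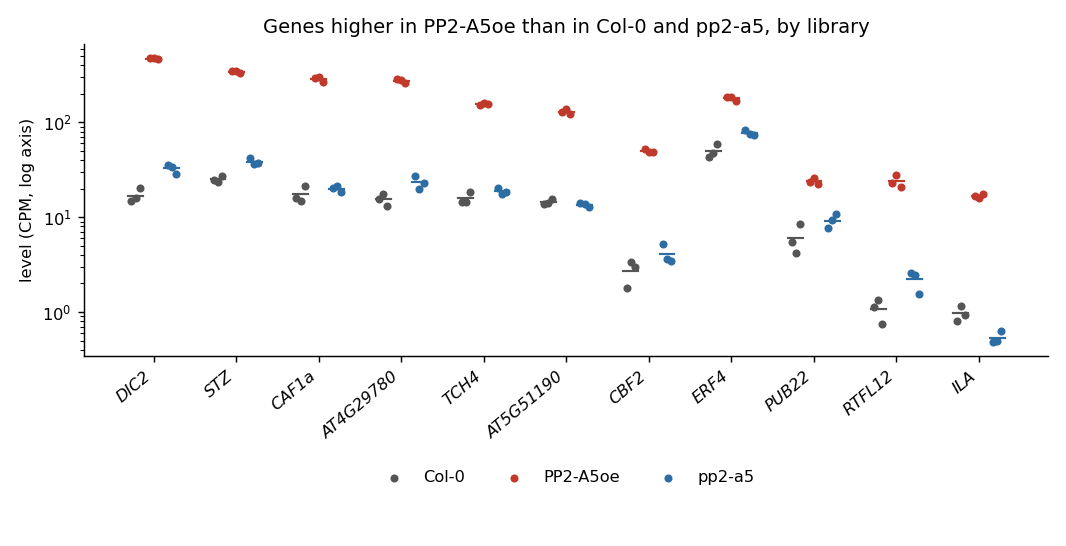
Level in CPM on a log axis of 11 genes in each of the 9 libraries, with Col-0 in grey, PP2-A5oe in red and pp2-a5 in blue, and a bar at each group mean. The PP2-A5oe points lie above all other points of the same gene, from ERF4 at 3.59-fold to DIC2 at 27.9-fold over Col-0.

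Transcription factor families of the stress response rose to different degrees. Of 23 tested ERF genes 17 rose (median log2 fold change 0.91), and 13 were also higher than in pp2-a5. In pp2-a5, 10 of the 23 were above Col-0 and 2 below. Of 6 C2H2 zinc finger repressors 5 rose (median 2.201), among them RHL41, also known as ZAT12, 10.4-fold, and ZAT6, 4.83-fold. Of these 6, 4 were above Col-0 in pp2-a5, and 3 were higher in PP2-A5oe than in pp2-a5. Of 27 WRKY genes 14 rose and 3 fell (median 0.56). Against pp2-a5, 5 WRKY genes were higher and 10 lower in PP2-A5oe (median -0.33). Without PP2-A5oe replicate 1, 1 WRKY gene fell in place of 3.

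AT5G51190, an ERF gene, stood at 13.9, 14.1 and 15.5 CPM in Col-0, at 128.8, 137.7 and 122.1 CPM in PP2-A5oe and at 14.3, 13.7 and 12.8 CPM in pp2-a5. Col-0 and pp2-a5 overlapped and PP2-A5oe stood 8.95-fold above Col-0, though the gene overlaps AT5G51180. ERF4, a repressor in the ethylene response, rose 3.59-fold to 179.5 ± 10.2 CPM, and ERF11, a further repressor with 2 transcripts, 11.8-fold to 33.9 CPM. ERF5, known from the chitin response, rose 6.46-fold. WRKY22, which acts downstream of a MAP kinase cascade, rose 3.42-fold to 44.2 ± 3.98 CPM and was not called between pp2-a5 and Col-0 (adjusted p = 0.426).

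WRKY53, which promotes senescence and defence, was higher still in pp2-a5: 7.26, 6.20 and 10.6 CPM in Col-0, then 55.4, 53.0 and 54.8 CPM in the PP2-A5oe libraries, and 76.7, 63.0 and 71.0 CPM in pp2-a5. Both lines were far above Col-0, and PP2-A5oe was 1.29-fold below pp2-a5 (adjusted p = 0.00421). WRKY33 and WRKY40, which regulate defence against fungi and bacteria, were higher than in pp2-a5 at log2 0.41 and 1.27. Against Col-0 they were 4.1-fold and 9.16-fold higher in PP2-A5oe, and 3.09-fold and 3.81-fold higher in pp2-a5. All 3 genes overlap another annotated gene.

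Both tested CAF1 deadenylase genes rose, as did most CCCH zinc finger genes of the same list. Of 9 deadenylase and CCCH zinc finger genes 8 rose (median 0.61), beside 14.5% of all genes. SZF1, a CCCH protein of the salt response, rose from 39.9 to 271.5 ± 6.98 CPM and CAF1b, the close relative of CAF1a, 3.64-fold. In pp2-a5, 8 of the 9 were above Col-0 as well (median 0.575), SZF1 and CAF1b among them. Compared directly with pp2-a5, 4 of the 9 were higher and 1 lower in PP2-A5oe. Of 6 genes of the decay core, which remove the cap and degrade the message, edgeR called 0 (1 higher at an unadjusted p under 0.05, and 0 by DESeq2). DCP1, a decapping subunit, was at 154.8 and 170.7 CPM (adjusted p = 0.134), and LBA1, the helicase of nonsense-mediated decay, at 170.5 and 174.3 CPM.

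Calcium sensors, MAP kinase genes and ubiquitin ligases of the early immune response rose in part, as they did in pp2-a5. Among all genes, 14.5% were above Col-0 in PP2-A5oe and 12.3% in pp2-a5. Of 17 calcium sensors and decoders 8 rose and 1 fell, with a median of 0.18 that became 0.24 to 0.32 when any one of the 6 libraries of the comparison was left out. In pp2-a5, 8 of the 17 were above Col-0 and 1 below (median 0.30). TCH2, a calmodulin-like touch gene, rose 5.69-fold, and CPK32, a calcium-dependent kinase, rose from 67.98 to 136.0 CPM. Of 11 calcium channels and pumps 2 rose (and 1 fell without Col-0 replicate 3), the glutamate receptor-like genes GLR2.7 and GLR3.3, and 5 of the 11 were lower than in pp2-a5. Of 20 MAP kinase cascade genes 8 rose (median 0.27, and 0.46 without Col-0 replicate 2 or 0.40 without PP2-A5oe replicate 3). They included MPK3, a kinase of immune signalling, 1.89-fold, and MKK4, an activator of MPK3, 1.88-fold. In pp2-a5, 6 of the 20 were above Col-0, with MPK3 1.85-fold and MKK4 1.61-fold higher. Neither MPK3 nor MKK4 was called between the lines (adjusted p = 0.85 and 0.115). AT2G30020, a protein phosphatase 2C gene counted with this list, stood at 13.1, 15.2 and 10.8 CPM in Col-0, at 80.9, 75.4 and 87.0 CPM in PP2-A5oe and at 15.6, 15.7 and 16.9 CPM in pp2-a5. The PP2-A5oe libraries stood far above the rest, 6.18-fold above Col-0.

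Of 22 ubiquitin ligases of the PUB and ATL types 13 rose (median 0.495), and 7 of the 22 were also higher than in pp2-a5. In pp2-a5, 10 of the 22 were above Col-0 and 1 below. PUB22, which damps responses to microbial patterns, stood at 5.48, 4.19 and 8.40 CPM in Col-0, at 23.53, 26.1 and 22.3 CPM in PP2-A5oe and at 7.62, 9.26 and 10.8 CPM in pp2-a5. Its PP2-A5oe libraries lay above all the others, while Col-0 and pp2-a5 overlapped. PUB19, a ligase of drought signalling, rose from 40.7 to 129.2 CPM, and ATL2, a chitin-induced RING ligase, 3.28-fold.

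Some immune receptor genes rose. Of all genes, 14.5% were higher than in Col-0 and 7.21% higher than in pp2-a5. Of 14 TIR-domain receptors and helpers 9 rose and 2 fell (median 0.34), with SNC1 1.45-fold and RPP4 1.61-fold. Against pp2-a5, edgeR called 0 of the 14 higher (0 at an unadjusted p under 0.05 and 0 by DESeq2) and 3 lower. These genes lie in clusters of similar copies, and the 3 most clearly changed, SNC1, RPP1 and RPP4, have several transcripts. Of 33 cysteine-rich and wall-associated receptor kinases 12 rose and 3 fell (median 0.35), but 16 were lower and 2 higher than in pp2-a5 (median -0.42). In pp2-a5, 21 of the 33 were above Col-0, where 12.3% of all genes were higher and 8.47% lower. Without Col-0 replicate 1, or without any one of the PP2-A5oe libraries, 1 of them fell in place of 3. CRK4 averaged 26.2, 51.8 and 77.4 CPM in Col-0, PP2-A5oe and pp2-a5. Of 10 genes of penetration resistance, the vesicle and callose defence at the cell wall, 7 rose and 1 fell (median 0.46). SYP122, a syntaxin of that path, rose 3.98-fold, and PEN3, a transporter that exports defence compounds, averaged 449.5, 706.4 and 916.8 CPM in the same order. Of 10 genes for danger peptides and their receptors 4 rose (median 0.22), among them PSK5, a phytosulfokine precursor, 1.77-fold. PEPR1, the receptor of Pep peptides, rose 1.17-fold, a call lost without any one of the Col-0 libraries and without PP2-A5oe replicate 1 or 3 or pp2-a5 replicate 2 or 3.

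Of the PP2-A lectin family itself, the relatives of PP2-A5, 12 genes were tested of 23, of which 3 rose and 3 fell. Among all genes 14.5% rose and 10.5% fell. Without Col-0 replicate 1 none of them rose, and 1 rose without PP2-A5oe replicate 1 or replicate 3. Without PP2-A5oe replicate 3, 1 fell in place of 3. PP2-A8 fell from 3.25 to 0.985 CPM (adjusted p = 0.0013), and PP2-A1, the abundant phloem lectin, from 290.8 to 251.3 CPM (adjusted p = 0.0173, lost without Col-0 replicate 3 or PP2-A5oe replicate 3).

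Ethylene synthesis moved through single genes. Of 20 genes of ethylene synthesis and signalling 6 rose and 2 fell, beside 14.5% and 10.5% of all genes. Without Col-0 replicate 2 or PP2-A5oe replicate 1, 1 fell, and with upper-quartile scaling 4 fell. ACS6, which makes the precursor of ethylene and is a target of stress MAP kinases, stood at 20.3, 19.3 and 19.2 CPM in Col-0, at 84.7, 88.3 and 85.2 CPM in PP2-A5oe and at 26.6, 24.6 and 24.7 CPM in pp2-a5. All groups lay apart, with PP2-A5oe 4.38-fold above Col-0. EFE, an enzyme of the last step, rose 1.22-fold, and EBF2, an F-box gene whose product removes the ethylene regulator EIN3, fell 1.60-fold.

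Growth hormone lists were mixed. Beside the 14.5% of all genes that rose, the shares were 21.6% for auxin, 34.6% for cytokinin, 26.3% for gibberellin and 22.2% for brassinosteroid genes. Among all genes 10.5% fell. Of 37 auxin response genes 8 rose and 7 fell, with the early auxin gene IAA1 1.88-fold higher and the SAUR gene AT4G34760 2.24-fold lower. Of 26 cytokinin genes 9 rose and 2 fell (1 without Col-0 replicate 1 or 2 or PP2-A5oe replicate 2 or 3), with IPT3, an enzyme of cytokinin synthesis, 1.51-fold higher than in Col-0 and 1.58-fold higher than in pp2-a5. Its response regulators split, with RR5 1.79-fold higher and ARR6 1.55-fold lower. Of 19 gibberellin genes 5 rose and 2 fell, the receptor gene GID1B 1.84-fold higher and the gibberellin-induced GASA6 1.83-fold lower. In pp2-a5, GID1B was 2.08-fold above and GASA6 2.36-fold below Col-0. Of 18 brassinosteroid genes 4 rose and 1 fell, and the fall was lost without Col-0 replicate 1 or 3 or PP2-A5oe replicate 2 or 3.

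Cell wall loosening genes changed in both directions, and where they differed from pp2-a5 they were mostly higher. Of 35 xyloglucan and expansin genes 9 rose and 9 fell against Col-0, while 9 were higher and 1 lower than in pp2-a5. The shares of all genes were 14.5% and 10.5% against Col-0, and 7.21% and 5.45% against pp2-a5. Without Col-0 replicate 1 the rises numbered 5. TCH4, a touch-induced xyloglucan endotransglucosylase, stood at 14.5, 14.6 and 18.3 CPM in Col-0, at 153.3, 159.3 and 156.5 CPM in PP2-A5oe and at 20.4, 17.5 and 18.6 CPM in pp2-a5. The PP2-A5oe libraries stood apart from all others, 9.94-fold above Col-0. EXPA8, an expansin, fell 1.90-fold, to 160.9 ± 13.6 CPM, and was at 144.0 CPM in pp2-a5.

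Wax genes were called against Col-0 about as often as all genes. Of 36 genes of cuticular wax and fatty acid elongation 5 rose and 4 fell, beside 14.5% and 10.5% of all genes, and 10 were higher and 3 lower than in pp2-a5. Without Col-0 replicate 3 the rises numbered 8, and without PP2-A5oe replicate 1 the falls numbered 1. KCS1, an elongase of very-long-chain fatty acids, stood at 87.9, 81.9 and 91.1 CPM in Col-0, at 191.9, 196.5 and 171.2 CPM in PP2-A5oe and at 84.5, 78.2 and 85.2 CPM in pp2-a5. Col-0 and pp2-a5 overlapped and PP2-A5oe was 2.15-fold above Col-0 (adjusted p = 2.17e-14). KCS20, a second elongase, rose 1.53-fold and KCS3, with 2 transcripts, by 0.85 on the log2 scale. MYB30, an activator of elongase genes and of cell death in defence, rose 1.77-fold.

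Many nitrogen uptake genes rose. Of 28 genes of nitrate and ammonium uptake and assimilation 13 rose and 1 fell (median 0.23), and 10 were higher than in pp2-a5. Without Col-0 replicate 3, 3 fell. BT1, a scaffold protein of nitrogen signalling, stood at 132.5, 135.8 and 125.1 CPM in Col-0, at 381.4, 387.2 and 412.3 CPM in PP2-A5oe and at 187.0, 194.6 and 184.6 CPM in pp2-a5. All groups lay apart, though BT1 has 3 transcripts. AMT1;2, an ammonium transporter, rose 1.93-fold to 664.0 ± 14.2 CPM, and NRT1.1, the nitrate transporter and sensor, 1.38-fold, with no call against pp2-a5 (adjusted p = 0.655).

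Carbohydrate genes that rose included abundant ones. Among all genes 14.5% rose and 10.5% fell. BMY3, of the beta-amylase family, stood at 514.2, 530.8 and 494.9 CPM in Col-0, at 1181, 1220.0 and 1168 CPM in PP2-A5oe and at 1206, 1193 and 1205 CPM in pp2-a5. Both lines were 2.32-fold to 2.34-fold above Col-0 and overlapped each other, and the gene overlaps AT5G18680. Of 24 starch and sugar metabolism genes 5 rose and 2 fell (1 without Col-0 replicate 2 or PP2-A5oe replicate 1, and 4 with upper-quartile scaling), with GBSS1, which makes amylose, at 429.0, 681.1 and 477.9 CPM in Col-0, PP2-A5oe and pp2-a5. Of 36 sugar transporter and trehalose genes 12 rose and 4 fell. SWEET2, a vacuolar sugar transporter, rose by 0.85 on the log2 scale, and SAG29, a senescence-linked one, fell from 35.8 to 21.6 CPM and was 2.55-fold above pp2-a5. Of 14 genes of osmoprotectants and dehydrins 7 rose and 1 fell (median 0.37), and 7 were higher than in pp2-a5. SIP1, of raffinose synthesis, rose by 1.14 on the log2 scale and GolS2, which makes its precursor galactinol, 1.91-fold.

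Mitochondrial stress genes changed in both directions. Of 13 genes 6 rose and 2 fell, 1 of these without Col-0 replicate 3 or any one of the PP2-A5oe or pp2-a5 libraries. UCP5, a mitochondrial carrier related to DIC2, rose 5.61-fold to 105.8 CPM, and BCS1, an outer membrane protein of the dysfunction response, 3.96-fold. AOX1D, an alternative oxidase, fell 3.51-fold to 2.14 CPM and was 4.23-fold below pp2-a5. Of 9 low oxygen genes 3 rose, among them LBD41 1.79-fold, and edgeR called 0 higher than in pp2-a5 (0 at an unadjusted p under 0.05 and 0 by DESeq2).

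Redox and detoxification genes moved both ways. Among all genes 14.5% rose and 10.5% fell. Of 24 genes of reactive oxygen production and scavenging 6 rose and 5 fell, or 9 fell with upper-quartile scaling. RBOHD, the NADPH oxidase of immune bursts, rose 1.51-fold, and VTC2, the controlling enzyme of vitamin C synthesis, from 1134 to 1860.0 CPM. Of 36 glutathione transferases and glycosyltransferases 12 rose and 12 fell, but 6 fell without Col-0 replicate 1 or PP2-A5oe replicate 2 and 7 without PP2-A5oe replicate 1. GSTF2 rose 1.64-fold to 1129 CPM and was 1.56-fold below pp2-a5, whereas GSTU11 fell 6.81-fold. Glutathione transferases are a family of close copies, so reads may be divided between them, and GSTF2 overlaps another gene.

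Among growth, ribosome and chlorophyll genes more fell than rose, with small changes. Of 35 cell division and replication genes 2 rose and 7 fell (median -0.16). Without PP2-A5oe replicate 1 the falls numbered 4, and without Col-0 replicate 1 or PP2-A5oe replicate 2 the rises numbered 1. CYCD3;1, a cyclin of leaf cell division, was 1.27-fold lower than in Col-0, and it was 1.27-fold lower in pp2-a5 too. Of 18 cytosolic ribosomal protein genes 5 fell (median -0.20), 11 fell with upper-quartile scaling, and 1 fell without Col-0 replicate 3 and PP2-A5oe replicate 2 together. Of 26 chlorophyll and tetrapyrrole genes 5 rose (3 without PP2-A5oe replicate 3) and 10 fell (median -0.13). HEMC, an early enzyme of the pathway, was 1.49-fold lower and the chloroplast regulator GLK2 1.37-fold higher. In pp2-a5, 3 of the 35 cell division, 6 of the 18 ribosomal and 8 of the 26 chlorophyll genes were below Col-0. Their medians were -0.10, -0.18 and -0.15, and 1, 0 and 2 genes were above Col-0. Of 21 heat shock factors and chaperones 3 rose and 5 fell, beside 14.5% and 10.5% of all genes, and 6 were lower than in pp2-a5. HSP81-3, a cytosolic chaperone, averaged 182.9, 133.8 and 183.8 CPM in Col-0, PP2-A5oe and pp2-a5. Of 16 genes of the unfolded protein response 1 rose, the transcription factor gene BZIP60 (1.71-fold), and 3 fell, or 7 with upper-quartile scaling and 0 without PP2-A5oe replicate 1.

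Senescence and flavonoid genes rose in part. Of 22 leaf senescence genes 9 rose and 7 fell, and 9 were lower than in pp2-a5. NAP, a senescence regulator, averaged 20.9, 52.6 and 75.6 CPM in Col-0, PP2-A5oe and pp2-a5, while BCB, a blue copper protein, averaged 5.52, 45.0 and 18.4 CPM. Of 20 anthocyanin and flavonol genes 8 rose (median 0.28) and 1 fell, the fall being lost without Col-0 replicate 1 or 2, PP2-A5oe replicate 1 or 3, or any one of the pp2-a5 libraries. UGT78D2, a flavonoid glucosyltransferase, rose 1.73-fold, and MYBL2, a repressor of the pathway, 1.91-fold. In pp2-a5 they stood 1.24-fold and 3.19-fold above Col-0, and MYBL2 was 1.67-fold lower in PP2-A5oe than in pp2-a5. Of 16 trichome genes 3 rose and 1, MYB23, fell, a call lost without 7 of the 9 libraries in turn, Col-0 replicate 1 among them. Of 16 aquaporins 2 rose (12.5%) and 2 fell. That share and the 18.8% of trichome genes that rose lay near the 14.5% of all genes that rose, while 10.5% of all genes fell. Of 18 protease inhibitors and other anti-herbivore proteins 5 rose and 5 fell. NSP5, which diverts glucosinolate breakdown to nitriles, rose 1.66-fold. ESM1, which works against nitrile formation, stood at 2129, 2074 and 2224 CPM in Col-0, at 1261, 1273 and 1172 CPM in PP2-A5oe and at 1335, 1269 and 1274 CPM in pp2-a5. Both lines lay below Col-0 and overlapped each other.

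**Figure D3:**
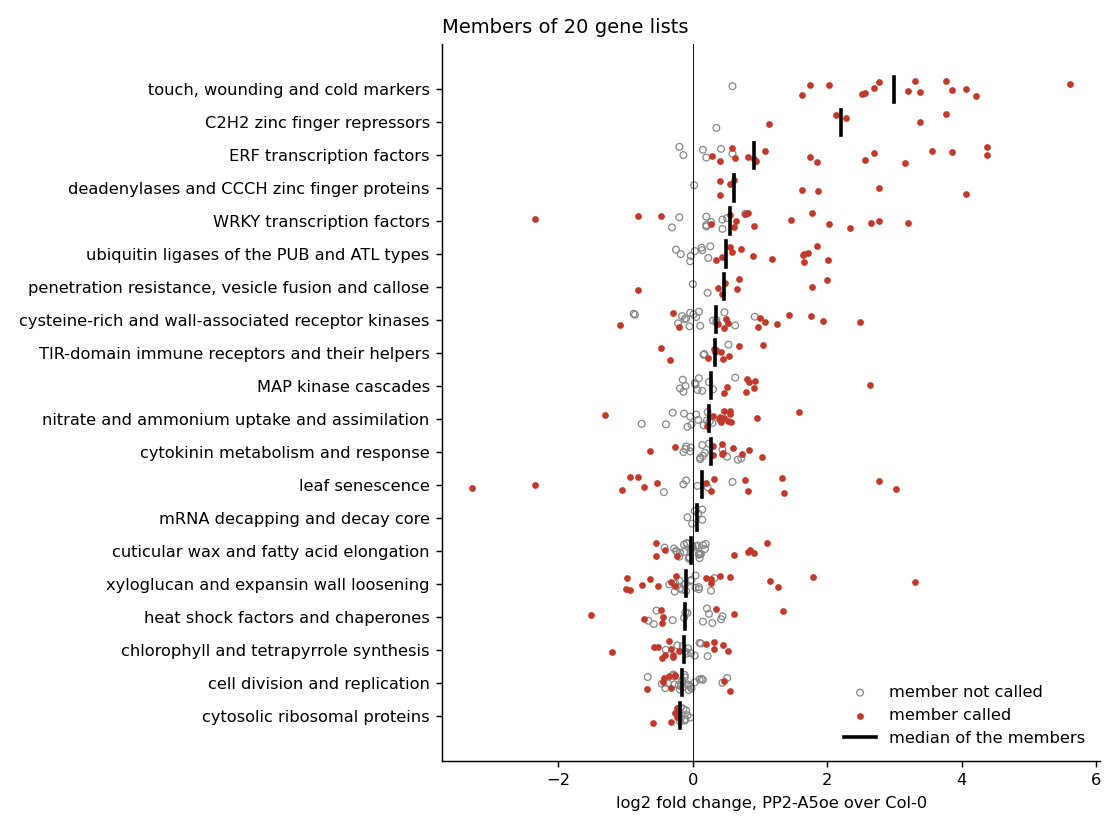
Log2 fold change of PP2-A5oe over Col-0 for the tested members of 20 gene lists, filled where the member was called and open where it was not, with a black bar at the list's median. Touch, wounding and cold markers, a list drawn up with earlier results of these data known, and ERF genes lie mostly to the right. Of these, 15 of 16 and 17 of 23 were called higher, beside 14.5% of all genes. Heat shock factors and chaperones, with 3 higher and 5 lower, have a median of -0.11, and ribosomal proteins lie just left of 0.

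The most abundant gene to fall at least 2-fold was AT5G44680, a DNA glycosylase superfamily gene, from 188.1 to 89.5 CPM, with 100.8 CPM in pp2-a5. AT1G77940, of the L7Ae ribosomal protein superfamily, stood at 160.6, 154.9 and 181.1 CPM in Col-0, at 75.4, 74.5 and 70.02 CPM in PP2-A5oe and at 159.4, 145.2 and 144.6 CPM in pp2-a5. Col-0 and pp2-a5 overlapped, and PP2-A5oe was 2.26-fold below Col-0 and 2.04-fold below pp2-a5. AT1G49200, a RING ligase gene that overlaps another gene, averaged 124.7, 54.9 and 118.8 CPM in Col-0, PP2-A5oe and pp2-a5. AT5G02760, of the protein phosphatase 2C family, fell 2.39-fold, AT4G22470, of the lipid transfer protein family, 3.21-fold and the B-box zinc finger gene BBX27 2.03-fold. IRT3, a metal transporter gene, fell from 24.8 to 11.8 CPM and was 1.41-fold below pp2-a5. KTI1, a Kunitz trypsin inhibitor of the kind that acts on digestive proteases of herbivores, stood at 23.9, 25.0 and 31.9 CPM in Col-0, at 9.94, 12.6 and 11.4 CPM in PP2-A5oe and at 23.2, 21.7 and 21.3 CPM in pp2-a5. Its PP2-A5oe libraries were below all others, 2.37-fold below Col-0.

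In a further set, PP2-A5oe fell below Col-0 while pp2-a5 rose above it. NIT2, a nitrilase, stood at 68.4, 59.9 and 79.2 CPM in Col-0, at 31.5, 31.4 and 29.2 CPM in PP2-A5oe and at 139.5, 128.0 and 121.5 CPM in pp2-a5. The 3 groups did not overlap, and PP2-A5oe was 2.25-fold below Col-0 and 4.22-fold below pp2-a5. NIT2 has close copies, NIT1 and NIT3, that could share its reads. AT2G45220, of the pectin methylesterase inhibitor superfamily, stood at 46.3, 52.1 and 57.2 CPM, at 15.1, 21.3 and 19.5 CPM and at 79.8, 70.3 and 70.8 CPM in the same order. SPX3, a gene induced when phosphate is short, stood at 6.13, 7.2 and 7.10 CPM, at 2.16, 2.34 and 1.04 CPM and at 10.5, 11.4 and 9.54 CPM. These groups also lay apart in the order PP2-A5oe, Col-0, pp2-a5. The peroxidase gene PRX52 and AT2G04460, annotated as a pseudogene, had that order as well, with PP2-A5oe 2.92-fold and 4.05-fold below pp2-a5.

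ELI3-2, annotated as cinnamyl alcohol dehydrogenase 8, stood at 9.51, 7.70 and 10.3 CPM in Col-0, at 0.497, 0.901 and 1.38 CPM in PP2-A5oe and at 6.16, 6.61 and 8.44 CPM in pp2-a5. Col-0 and pp2-a5 overlapped, and PP2-A5oe was 9.71-fold below Col-0 and 7.54-fold below pp2-a5. PGAZAT, a polygalacturonase of abscission zones, fell 5.66-fold, AT5G49560, a putative methyltransferase, 5.83-fold and the transporter gene OCT1 4.06-fold, all to under 1.5 CPM. AT5G39520, which encodes a protein with a domain of unknown function, fell 5.08-fold and was 3.99-fold below pp2-a5.

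**Figure D4:**
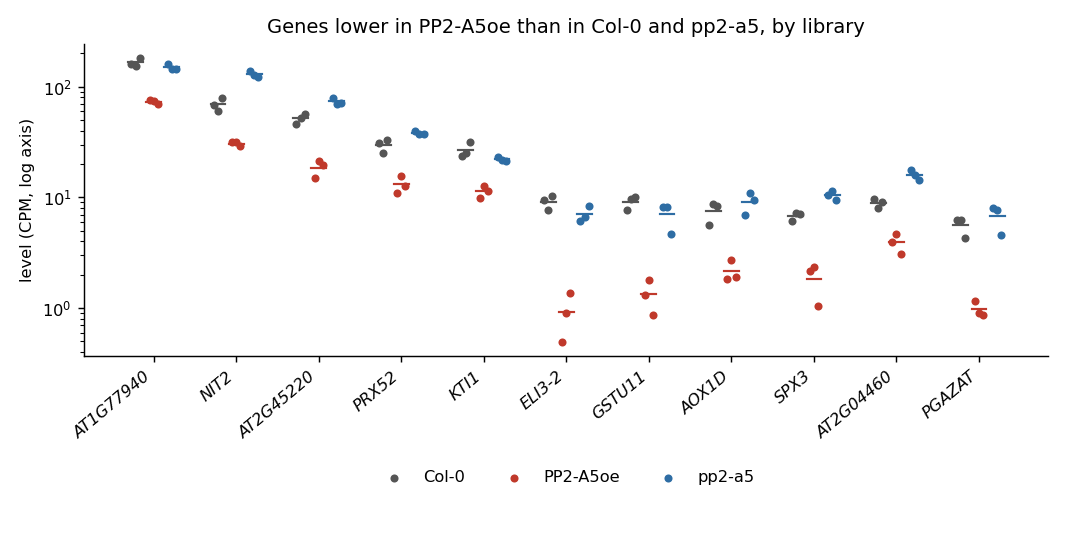
Level in CPM on a log axis of 11 genes in each of the 9 libraries, with Col-0 in grey, PP2-A5oe in red, pp2-a5 in blue and a bar at each group mean. The PP2-A5oe points lie below all other points of the same gene, and for NIT2, AT2G45220, PRX52, SPX3 and AT2G04460 the pp2-a5 points lie above those of Col-0.

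Among the most abundant genes to rise at least 2-fold, several were also above Col-0 in pp2-a5. AT1G55960, a polyketide cyclase and lipid transport superfamily gene, stood at 928.9, 977.0 and 889.3 CPM in Col-0, at 1977, 1943 and 1844 CPM in PP2-A5oe and at 1190.0, 1253 and 1274 CPM in pp2-a5. AT5G19240, a GPI-anchored glycoprotein gene, stood at 139.2, 146.8 and 153.7 CPM, at 952.6, 925.8 and 924.3 CPM and at 493.1, 439.3 and 405.4 CPM in the same order. In both, pp2-a5 lay between the other groups without overlap. The same intermediate place was found for SHM7, a serine hydroxymethyltransferase (2.57-fold over Col-0), SRC2, a cold-induced membrane protein (2.95-fold), HSPRO2, a defence gene (4.31-fold), and the sigma factor gene SIGE (2.09-fold). AT4G32020, annotated as a serine/arginine repetitive matrix-like protein, rose 2.43-fold, AT3G19030, annotated as TFIID subunit 1b-like, 2.61-fold and AT4G34150, of the calcium-dependent lipid-binding family, 2.28-fold. These were also 1.89-fold, 2.16-fold and 1.48-fold above pp2-a5, in that order. In pp2-a5 they stood 1.28-fold, 1.21-fold and 1.54-fold above Col-0. RVE1, a clock-related transcription factor gene, rose 2.48-fold, with no call against pp2-a5 (adjusted p = 0.895). For 1430 of the 2027 genes called higher, the pp2-a5 mean lay between the means of Col-0 and PP2-A5oe. Of all tested genes, 138 (0.987%) were above Col-0 and below pp2-a5 in PP2-A5oe, and 24 (0.172%) were below Col-0 and above pp2-a5.

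Markers of root tissue were higher in PP2-A5oe than in Col-0. Of 10 tested markers, out of 21, 7 rose and 0 fell (median 0.56), and 5 were higher than in pp2-a5. Their summed level was 550.2 to 563.4 CPM in Col-0 and 728.8 to 778.5 CPM in PP2-A5oe, with CASP5 listed at 0. Without the filter on low counts 11 rose, and with the stricter filter 4. LRX1, a root hair wall protein, averaged 2.80, 8.33 and 3.56 CPM in Col-0, PP2-A5oe and pp2-a5, and CASP1, of the endodermis, 0.563, 3.12 and 0.971 CPM. SCR, a regulator in the root that leaves express too, rose from 163.1 to 245.3 CPM. The part of root tissue in the other results was not tested. In bulk samples, fewer cells of a type and less RNA per cell cannot be told apart.

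Markers of other tissues moved little. None of 13 tested xylem and fibre markers and none of 7 shoot meristem markers was called by edgeR (0 at an unadjusted p under 0.05 and 0 by DESeq2), the summed levels being 263.1 to 305.4 and 218.9 to 245.2 CPM in Col-0 and 255.2 to 287.0 and 225.0 to 248.1 CPM in PP2-A5oe. Of 12 phloem markers 2 fell, PP2-A1 among them, and 1 fell without Col-0 replicate 2 or PP2-A5oe replicate 3, at 1205.4 to 1225.8 CPM against 1102.4 to 1161.5 CPM. The guard cell list also holds genes of stomatal development. Of its 14 genes 3 fell, the stomatal peptide genes EPF1, EPF2 and STOMAGEN, and the other 11 were not called. The list summed to 327.3 to 342.6 CPM in Col-0 and 312.2 to 330.9 CPM in PP2-A5oe. EPF2 lost its call without Col-0 replicate 1 or 3, PP2-A5oe replicate 2 or 3 or pp2-a5 replicate 3, and STOMAGEN without PP2-A5oe replicate 1. Flower markers summed to 25.5 to 31.6 CPM in Col-0 and 27.5 to 29.6 CPM in PP2-A5oe, with 1 of 5 lower, AGL8 (none without Col-0 replicate 1 or PP2-A5oe replicate 3) and DYT1 listed at 0. Pollen markers summed to at most 19.1 CPM in Col-0 (PP2-A5oe 11.6 CPM), with 0 of 3 called by edgeR (1 in each direction at an unadjusted p under 0.05, and 0 by DESeq2), or 1 lower without Col-0 replicate 3, PP2-A5oe replicate 1 or PP2-A5oe replicate 3. Of the seed markers 1 was tested, OLEO4, at 3.498 and 3.84 CPM (adjusted p = 0.742).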

How the data were processed

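Polyadenylated RNA of 9 rosette libraries was sequenced. The submitters' processing notes name the TAIR10 build, and the deposited values are raw counts for each locus. No aligner, counter, gene model or strand setting is named in what was used here, so reads of overlapping and antisense genes cannot be told apart. Entries of 1 locus were summed (22449 entries, 22155 loci), and 21952 loci were matched to the RefSeq TAIR10.1 annotation. PP2-A5 itself is not reported here.

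Low loci were removed with filterByExpr (minimum count 10, minimum total 15), which left 13975. After TMM scaling, all 9 libraries entered 1 robust quasi-likelihood fit with a mean per group in edgeR 4.0.16 (R 4.3.3), with a biological coefficient of variation of 6.89% and 6 residual degrees of freedom. Summaries used Python 3.11.15, pandas 2.3.3 and matplotlib 3.10.9. How replicates were grown is not labelled, so each p-value reflects only how far these samples spread, which may be technical. An exact permutation test of 3 against 3 cannot go below p = 0.1. Intervals and floors cover counting error only.

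The members, the 40 gene lists and the 8 marker lists were chosen with earlier results of these data known. Of 1617 names, 115 did not match and 49 were ambiguous. The text names the 12 most abundant genes per direction called at 2-fold or more. It also names the 10 per direction furthest from pp2-a5 among genes called the same way in both comparisons, without overlap of replicates and with 5 CPM or more in the higher group. From the lists, the text names some of the up to 4 called members with the lowest adjusted p, or of the 2 highest in level where no member passed. CASP5 and DYT1 were named because they were at 0.

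In simulated counts of 13827 genes, 36%, 74%, 96% and 98% of genes changed 1.25-, 1.5-, 2- and 4-fold between PP2-A5oe and Col-0 were recovered, and 6 unchanged genes were called. The 50 changed genes per fold were drawn only from genes above a minimum level, with the spread estimated from these data. The shares therefore do not hold for the genes of lowest level. Other settings tried were RLE scaling, upper-quartile scaling, the DESeq2 1.42.0 Wald test, no filter, a filter at 10 CPM in 3 libraries, fits of 2 groups, a block for the replicate number, genes with a single transcript and no overlap, a 300-base promoter window and each library left out. Leaving out the libraries with the highest mitochondrial share, Col-0 replicate 3 and PP2-A5oe replicate 2, was chosen after seeing the data.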

Additional observations from a re-analysis of the deposited data

Results flagged for a closer look

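For 5 named genes the lines lay on opposite sides of Col-0, lower in PP2-A5oe and higher in pp2-a5. The difference between the lines was called for each by edgeR's quasi-likelihood test with Benjamini-Hochberg adjustment. SPX3, NIT2 and AT2G04460 had been named for their distance from pp2-a5, and all 5 were picked for opposite calls against Col-0. The call between the lines was thus largely set by the choice and is no separate support. The log2 difference of PP2-A5oe minus pp2-a5 was -2.49 for SPX3, -2.08 for NIT2, -2.02 for AT2G04460, -1.99 for AT2G45220 and -1.55 for PRX52. The lowest and highest adjusted p of these differences were 1.77e-18 for NIT2 and 6.23e-10 for SPX3. In each gene the 3 PP2-A5oe libraries lay below the 3 Col-0 libraries. The Col-0 libraries are common to both contrasts with Col-0, while the difference between the lines does not use them except for the shared estimate of spread. The cause was not tested.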

How the results depend on the processing

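The count of genes called between PP2-A5oe and Col-0 was 3494 with RLE scaling, 3838 with upper-quartile scaling, 2635 with DESeq2, 3659 without a filter, 3018 with the stricter filter and 3217 with only the groups compared. With upper-quartile scaling 46.09% of calls were higher, against 57.98%, and the CPM gained and lost were 61970 and 69770. Under DESeq2 the lower genes numbered 975 against Col-0, 496 against pp2-a5 and 133 against both. Restricted to genes with 1 annotated transcript and no overlapping gene, and so to fewer genes tested, 2033 were called against Col-0 (1137 higher, 896 lower), 1091 against pp2-a5 (627 higher, 464 lower), and 644 against both (483 higher).

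Leaving out 1 library at a time gave 2818 to 3675 calls against Col-0 (1710 to 2030 higher, 1074 to 1645 lower, 55.24% to 62.51% higher), 1342 to 2161 against pp2-a5 (770 to 1177 higher, 555 to 984 lower) and 751 to 1125 against both (593 to 827 higher, 156 to 298 lower). The CPM gained ran from 66740 to 71820 and the CPM lost from 42040 to 54610. With the replicate number as a block 3185 genes were called. The deviations of Col-0 and PP2-A5oe libraries of the same number correlated at -0.03, -0.10 and -0.18, so no likeness by number was seen. With 3 libraries per group this cannot tell whether libraries of 1 number were grown or prepared together. In the whole 300-base window the shares of all genes were 3.75% for CGCGTT, 16.0% for CCGAC, 8.47% for CACGTG, 14.2% for TTGACC and 2.85% for AAAATATCT, and CGCGTT was found in 9.87% of genes that rose at least 2-fold. Without Col-0 replicate 3 and PP2-A5oe replicate 2, a choice made after seeing the data, 3098 genes were called. Beyond the libraries, depth limits precision at low levels: 14.6% of genes between 1 and 10 CPM were called, against 43.6% of those over 100 CPM.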
